A study of Mus musculus with 22 samples.

Results

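The comparison described here is between untreated cultures of dorsal root ganglion (DRG) neurons from mice labelled Postn knock out (KO) and from wild-type (WT) mice. It was defined by its samples: 3 KO and 3 WT control cultures, 6 of the 22 samples of the series, over autosomal and mitochondrial genes joined on their Ensembl identifiers. Both groups were kept for 72 h in medium without recombinant POSTN (rPOSTN). For comparison, the same genotypes were examined in 6 cultures given rPOSTN for 72 h and in 6 whole-ganglion samples of mice given vehicle for 5 days. The fit of the ganglia also held ganglion samples of both genotypes from mice given imiquimod (IMQ). They entered its filter, scaling and estimate of spread, but not its contrast. The test of the difference between cultures and ganglia left them out. The KO cultures were deposited in one table and the WT cultures in another, so genotype and table coincide and their parts in any difference cannot be told apart. The labels call the cultures primary cells and give no strain, age, sex, allele or number of animals per culture. P-values therefore measure the spread between these samples, which may be technical.

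Periostin, the product of Postn, is a secreted matricellular protein that binds integrins and collagen and is made mainly by fibroblasts, periosteal cells and Schwann-lineage cells. DRG hold the cell bodies of sensory neurons, each wrapped by satellite glia, together with Schwann cells, fibroblasts, vessels and macrophages, and dissociated cultures keep some of each. Mitochondrial DNA encodes core subunits of the respiratory chain and the ribosomal RNAs that translate them, while all other subunits come from nuclear genes.

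Total counts per sample ran from 18265889 to 23261450 in WT and from 18329786 to 19205603 in KO. On a principal component analysis the first component took 43.25% of the variance and placed the WT samples at 9.41 to 16.1 and the KO samples at -23.6 to -5.12. The root mean square log2 difference between samples was 0.189 to 0.213 within WT, 0.284 to 0.347 within KO and 0.284 to 0.374 between groups, so the last 2 ranges overlapped. Xist, which is transcribed from the inactive X, stood at 0.434 and 0.821 counts-per-million (CPM) in WT 1 and WT 2 and at 771.5 to 1187 CPM in the other 4 samples. The summed CPM of 4 Y-linked genes was 173.8 and 184.6 in WT 1 and WT 2, 0 in WT 3 and 47.4 to 102.7 in the KO samples. The makeup by sex thus differed between and within the groups, and genes of the X and Y chromosomes are left out.

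The labelled cell type was checked against defining markers. Stmn2, a growth-associated tubulin regulator of neurons, averaged 1328 ± 21.2 CPM in WT and 1301 ± 124.6 CPM in KO (SD, n = 3). Prph, the peripherin filament of sensory neurons, averaged 1505 CPM in WT and 1692 CPM in KO. Markers of other cells were present too: the summed CPM of the tested and untested members was 3117 to 3961 for 17 satellite glia genes and 2915 to 4234 for 24 fibroblast genes. The summed CPM of 15 T, B and NK cell genes was 11.7 to 20.7 in WT and 27.0 to 39.1 in KO, with Cd3e and Cd3g at 0 in all 6 samples. That of 15 neutrophil and mast cell genes was 2.65 to 3.75.

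Of 16115 autosomal and mitochondrial genes tested, 1317 (8.17%) differed between KO and WT at an adjusted p below 0.05 in edgeR's quasi-likelihood test. There were 472 genes higher in KO (2.93%) and 845 lower (5.24%). Most differences were small: 18 of the higher and 33 of the lower genes differed more than 2-fold, and the median log2 fold change of all genes tested was 0.01. Lower genes made up 64.2% of the calls, and 53.6% when the samples were scaled by their upper quartiles. An unadjusted p below 0.05 was found for 24.4% of genes, where 5% would have one if no gene changed. Every KO sample lay above every WT sample for 14.3% of genes tested and below for 15.5%. The count depended on single samples. With WT 1, WT 2, WT 3, KO 1, KO 2 or KO 3 left out, 271, 307, 748, 778, 1415 and 2111 genes were called. There were 238 genes called the same way whichever sample was left out, 69 higher and 169 lower in KO. Of 111 called genes considered for description below, 53 come from these.

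Postn itself was read at 974, 918 and 710 CPM in WT 1, 2 and 3 and at 110, 107 and 405 CPM in KO 1, 2 and 3. Every KO sample lay below every WT sample, and KO 3 stood apart from the other KO samples. The log2 fold change was -2.07 ± 0.68 (SE), the KO mean was 23.9% of the WT mean, and the adjusted p was 0.174. Without KO 3 the log2 fold change was -3.01 and the adjusted p 4.7e-05, whereas without any other single sample the adjusted p was 0.282 to 0.401. The counts cover the whole gene and the labels do not name the deleted part, so reads of transcripts that remain outside it cannot be told apart from intact Postn. In rPOSTN cultures the WT samples held 1002, 989 and 685 CPM and the KO samples 81.8, 69.4 and 443 CPM, so the sample numbered 3 was again the highest of the KO group (log2 fold change -2.17, adjusted p = 0.402, and -3.56 with 0.0079 without that sample). In vehicle ganglia the WT samples held 20.9, 26.3 and 21.3 CPM and the KO samples 3.89, 3.39 and 5.06 CPM (log2 fold change -2.48 ± 0.22, adjusted p = 0.011, and 0.0571 to 0.0667 without WT 2 or without any 1 KO sample). A test of the difference between control cultures and ganglia did not pass the threshold for Postn (0.42 ± 0.60, adjusted p = 0.949).

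**Figure D1:**
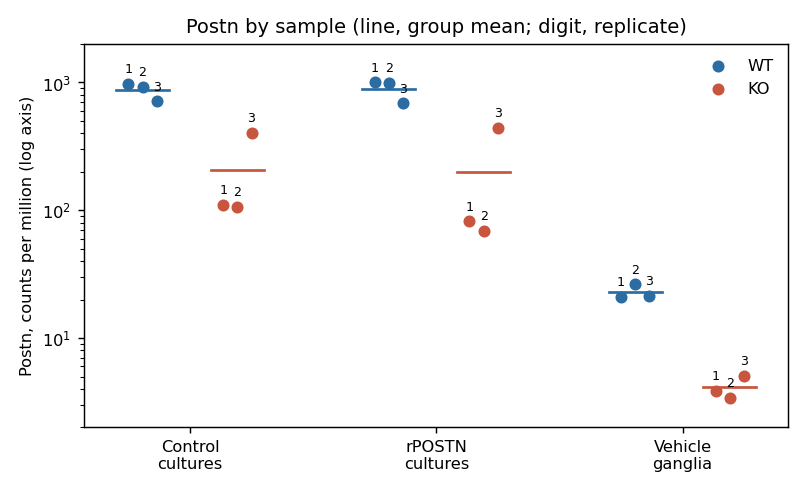
Postn in CPM (log axis) in each sample of the control cultures, rPOSTN cultures and vehicle ganglia; points are samples with their replicate number, lines are group means, blue is WT and red is KO. KO samples sit below WT samples in all 3 settings, and KO 3 lies above KO 1 and KO 2 in both kinds of culture.

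Genes that neighbour Postn on chromosome 3 were looked at because a knockout line can carry linked differences around the altered locus. Within 5 Mb of Postn, 57 genes were tested, of which 4 were called higher in KO (Cog6, Frem2, Supt20 and Tsc22d2) and 2 lower (Dclk1 and Tm4sf1). Over the whole of chromosome 3, 8.85% of 836 tested genes were called in either direction, close to the 8.17% of all genes. The directions were unlike those of all genes: 42 were higher and 32 lower, against 472 higher (2.93%) and 845 lower (5.24%). Within 20 Mb of Postn, 10 of 152 tested genes were called higher and 4 lower. The cause of this direction was not tested. Dclk1, a kinase bound to microtubules, was read at 418, 418 and 424 CPM in WT and 349, 329 and 336 CPM in KO (log2 fold change -0.31 ± 0.06, adjusted p = 0.0055). It was the 1 call of the 6 that held whichever sample was left out. Frem2, a basement membrane protein, rose from 7.32, 4.87 and 6.19 CPM to 9.01, 13.2 and 11 CPM (log2 fold change 0.85 ± 0.19, adjusted p = 0.015), with an adjusted p of 0.094 without WT 2 and 0.052 without WT 3. None of these 57 genes was called in vehicle ganglia.

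Transcripts of the mitochondrial genome were lower in KO. Of the 13 mitochondrial genes tested, 10 (76.9%) were called lower and none higher. All mitochondrial counts together made up 2.63, 2.36 and 2.50% of the total in WT 1, 2 and 3, and 1.17, 0.981 and 1.09% in KO 1, 2 and 3. The groups did not overlap in this share, and the highest KO sample was below the lowest WT sample for each called gene. WT 3, whose Xist and Y-linked levels were unlike those of WT 1 and WT 2, lay between them in this share.

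Subunits of complex I, the NADH dehydrogenase, were among those that fell. mt-Nd5 was read at 4092, 3714 and 4001 CPM in WT and 1266, 1039 and 1190 CPM in KO (log2 fold change -1.76 ± 0.07, adjusted p = 4.8e-08). mt-Nd6, the subunit encoded on the other strand of the circle, was read at 816, 616 and 779 CPM in WT and 236, 177 and 188 CPM in KO (-1.88 ± 0.14, adjusted p = 7.1e-04). The remaining called subunits, mt-Nd1, mt-Nd4 and mt-Nd2, had log2 fold changes of -1.57 ± 0.13, -1.53 ± 0.10 and -1.31 ± 0.14. These 5 genes thus stood at 27.2 to 40.2% of their WT means. Outside complex I, mt-Co1, the catalytic subunit of cytochrome c oxidase and the most abundant of these transcripts, was read at 13000, 11880 and 12440 CPM in WT and 6420, 5665 and 5806 CPM in KO (-1.06 ± 0.06, adjusted p = 1.2e-06). mt-Cytb, the subunit of complex III, fell by 1.23 ± 0.11 on the log2 scale. The ribosomal RNAs moved with the messengers: mt-Rnr2 had 491, 501 and 462 CPM in WT and 153, 116 and 155 CPM in KO (-1.78 ± 0.10), and mt-Rnr1 fell by 1.30 ± 0.10. The proline transfer RNA gene mt-Tp fell by 1.23 ± 0.09. Each of these 10 genes stayed called with any 1 sample left out, with a highest adjusted p of 0.026 (mt-Nd2 without KO 3).

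Not every mitochondrial gene could be read. mt-Co2, mt-Co3 and mt-Atp6 had 10 to 41 counts per sample, far below mt-Co1, and were not called. mt-Atp8, mt-Nd3 and mt-Nd4l had at most 4 counts and were not tested. The nuclear genome holds near-identical copies of part of the mitochondrial genome, so how reads with more than one match were counted bears on these genes, and that step is not given in the sources used here. Without a stated strand setting, reads of mt-Nd6 and of its antisense side cannot be told apart.

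**Figure D2:**
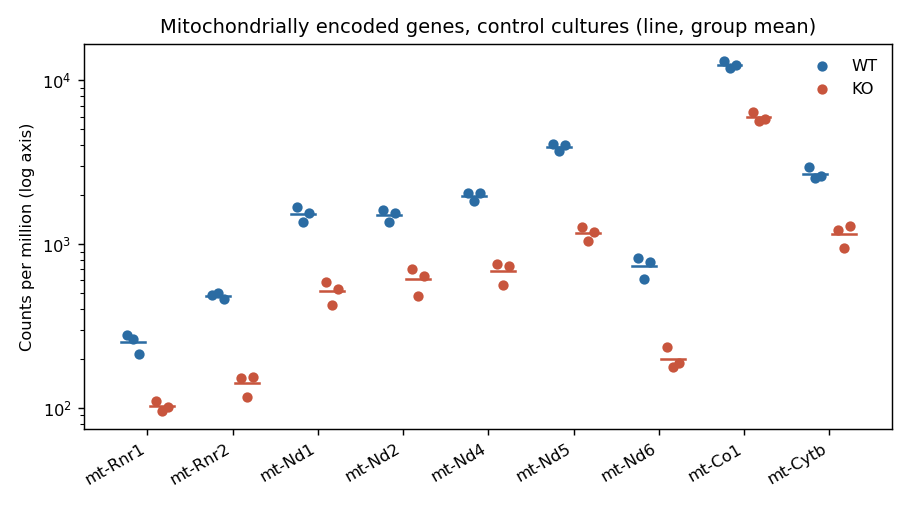
CPM (log axis) of the 2 ribosomal RNAs and 7 messenger RNAs of the mitochondrial genome in the control cultures; points are samples, lines are group means, blue is WT and red is KO. For each of the 9 genes the 3 KO samples lie below the 3 WT samples.

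Nuclear genes for the same complexes gave few calls. Of 67 tested nuclear oxidative phosphorylation genes, none was called higher and 4 (5.97%) lower, near the 5.24% of all genes, and the list's median log2 fold change was -0.04. Ndufb9 had 9.50, 7.61 and 6.81 CPM in WT and 5.48, 4.98 and 4.20 CPM in KO (-0.70 ± 0.18, adjusted p = 0.034). Ndufa2, Ndufa5 and Ndufb8 fell by 0.37, 0.33 and 0.41 on the log2 scale. The list had no call without WT 1 or without WT 2, and the summed CPM of its members was 7362 to 7568 in WT and 7064 to 7639 in KO. Mterf3, a nuclear-encoded repressor of mitochondrial transcription, was higher in KO, at 25.7, 21.9 and 25.2 CPM in WT against 39.4, 32 and 37.7 CPM in KO (0.58 ± 0.10, adjusted p = 0.0047). It was chosen after its values were seen, and its part in the mitochondrial levels was not tested.

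Genes for the cytosolic ribosome were lower as well, by much less. Of 72 tested ribosomal protein genes, 27 (37.5%, against 5.24% of all genes) were called lower and 1, Rpl29, higher, and the list's median log2 fold change was -0.195 against 0.01 for all genes tested. In 46 of the 72 every KO sample lay below every WT sample, which held for 15.5% of all genes. Rplp0, a protein of the stalk of the large subunit, was read at 1118, 1122 and 1085 CPM in WT and 856, 812 and 867 CPM in KO (-0.39 ± 0.06, adjusted p = 0.0015). Rpsa, of the small subunit, and Rpl32, of the large one, fell by 0.39 ± 0.06 and 0.40 ± 0.06 and, like Rplp0, stayed called without any 1 sample. The elongation factors Eef2 and Eef1a1, chosen after their values were seen, fell by 0.46 ± 0.05 and 0.36 ± 0.05. Rpl29 was read at 158, 149 and 129 CPM in WT and 186, 187 and 179 CPM in KO (0.34 ± 0.07, adjusted p = 0.012), with an adjusted p of 0.060 without WT 2 and 0.056 without KO 1. Leaving out WT 1, WT 2, WT 3, KO 1, KO 2 and KO 3 left 3, 6, 27, 20, 26 and 27 ribosomal protein genes called lower. Over all genes these fits called 192, 210, 504, 495, 883 and 1292 lower, against 845 with all samples. The list's count thus depended on WT 1 and WT 2, as did the count over all genes. With offsets for gene length the list's count was 42. Many of these genes have processed copies elsewhere in the genome between which reads can be split.

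Among neuronal genes the calls were of neurofilaments. Of 29 pan-neuronal genes tested, none was called higher and 3 (10.3%, against 5.24% of all genes) lower, and the list's median was 0.004. The 3 were the subunits of the neurofilament, the main intermediate filament of large myelinated axons. Nefh, the heavy subunit, was read at 589, 577 and 502 CPM in WT and 335, 344 and 317 CPM in KO (-0.74 ± 0.07, adjusted p = 1.2e-04). Nefm was read at 1070, 1053 and 1024 CPM in WT and 799, 827 and 811 CPM in KO (-0.37 ± 0.05, adjusted p = 0.0019). Nefl fell by 0.29 ± 0.06, with an adjusted p of 0.085 without WT 1 and 0.067 without WT 2. For Prph, the filament of small neurons, the difference was 0.17 (adjusted p = 0.067), and for Tubb3, neuronal tubulin, -0.23 (adjusted p = 0.052).

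Of 14 tested mechanoreceptor and proprioceptor genes, Ntrk3, the receptor of neurotrophin-3, and Pvalb, the calcium buffer of proprioceptors, were called lower (14.3% of the list, against 5.24% of all genes). Ntrk3 had 82.3, 84.2 and 103 CPM in WT and 73.1, 68.5 and 61.3 CPM in KO (-0.41 ± 0.09, adjusted p = 0.018), with 0.056 without WT 2 and 0.071 without WT 3. Pvalb had 12.5, 15.4 and 16 CPM in WT and 9.21, 9.33 and 8.77 CPM in KO (-0.69 ± 0.14, adjusted p = 0.0084), with 0.063 without WT 2. Calb1, a calcium buffer chosen after its values were seen, had 18.2, 18.5 and 18.8 CPM in WT and 11.8, 11.4 and 10.2 CPM in KO (-0.73 ± 0.11, adjusted p = 0.0028). No gene of 17 tested non-peptidergic nociceptor genes was called, and of 13 peptidergic ones Sst was called higher, at a mean of only 0.234 CPM in WT and 0.879 CPM in KO and with its call lost in 5 of 6 cases when 1 sample was left out (adjusted p up to 0.219). Of 22 tested TRP and sodium channel genes, Trpm3 and Scn2b were called lower (9.09%, against 5.24% of all genes), and without WT 1 their adjusted p was 0.183 and 0.184. The summed CPM of the mechanoreceptor and proprioceptor list was 1574 to 1641 in WT and 1282 to 1733 in KO, so this sum overlapped between groups. In 8 of its 14 genes every KO sample lay below every WT sample, which held for 15.5% of all genes (list median -0.17).

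Several receptors for neurotrophic factors were lower. Of 17 tested ligands and receptors, 5 were called lower (29.4%, against 5.24% of all genes) and 1 higher. Gfra1, the co-receptor of GDNF, was read at 302, 294 and 256 CPM in WT and 173, 153 and 208 CPM in KO (-0.67 ± 0.11, adjusted p = 0.0086), and stayed called without any 1 sample. Ngfr, the low-affinity neurotrophin receptor of neurons and glia, had 420, 418 and 343 CPM in WT and 233, 230 and 308 CPM in KO (-0.61 ± 0.13, adjusted p = 0.029). KO 3 lay nearest to WT for Ngfr, and the adjusted p was 1.5e-04 without KO 3 and 0.112 without WT 1. Il6st fell by 0.26 and Lifr rose by 0.34 on the log2 scale. These encode the 2 chains of the leukaemia inhibitory factor receptor, and each lost its call without WT 1, with adjusted p of 0.095 and 0.114.

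Glial genes moved unevenly. Of 15 tested satellite glia genes, 5 were called lower (33.3%, against 5.24% of all genes) and none higher (list median -0.29). Kcnj10, the potassium channel by which satellite glia take up potassium around the neuron, was read at 171, 171 and 192 CPM in WT and 110, 101 and 116 CPM in KO (-0.70 ± 0.07, adjusted p = 1.5e-04). Dhh, the hedgehog ligand of Schwann-lineage cells, fell by 0.53 ± 0.09. Glul, glutamine synthetase, fell by 0.33 ± 0.06, with an adjusted p of 0.058 without WT 1. Cdh19 fell by 0.33 ± 0.09, with adjusted p of 0.0812 to 0.218 without WT 1, WT 2, KO 1 or KO 2. Nes, the intermediate filament of progenitor and glial cells, chosen after its values were seen, had 789, 805 and 698 CPM in WT and 478, 422 and 499 CPM in KO (-0.71 ± 0.08, adjusted p = 2.4e-04).

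None of 13 tested myelinating Schwann cell genes was called at an adjusted p below 0.05, and their median was 0.007, but single samples set this value. Summed over the list, the CPM was 2510, 2478 and 1914 in WT 1, 2 and 3 and 2279, 1918 and 2770 in KO 1, 2 and 3, so WT 3 was low and KO 3 high. Without WT 3 or without KO 3 the median was -0.26, with no call and 1 call lower. Of 15 tested genes of non-myelinating and repair Schwann cells, Ngfr, Ncam1, Jun and Sox2 were called lower (26.7%, against 5.24% of all genes). None of the list was called without WT 1 or without WT 2, where 192 and 210 of all genes were called lower. The summed CPM of the satellite glia list was 3477 to 3961 in WT and 3117 to 3509 in KO. In bulk samples fewer cells of a type and less RNA per cell cannot be told apart, which holds for every cell type list below as well.

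Several vessel genes were lower in KO. Of 16 tested endothelial genes, 6 were called lower (37.5%, against 5.24% of all genes) and none higher (median -0.40). In 11 every KO sample lay below every WT sample, which held for 15.5% of all genes. Vwf, the von Willebrand factor stored by endothelial cells, was read at 47.2, 54.5 and 44.6 CPM in WT and 25.4, 26.2 and 25.3 CPM in KO (-0.93 ± 0.09, adjusted p = 1.2e-04). Eng, a TGF-β co-receptor of endothelium, was read at 117, 127 and 125 CPM in WT and 86.5, 73.3 and 80.4 CPM in KO (-0.62 ± 0.07, adjusted p = 4.6e-04). Kdr, the main receptor of VEGF, and Tie1, an angiopoietin co-receptor, fell by 0.54 ± 0.08 and 0.77 ± 0.12. These 4 stayed called without any 1 sample. Pecam1 fell by 0.40 ± 0.07 and lost its call without WT 2 (adjusted p = 0.059). Cldn5 fell by 0.63 ± 0.18 and was not called with any sample left out (adjusted p 0.055 to 0.198). The summed CPM of the list was 554 to 610 in WT and 420 to 439 in KO.

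Of 14 tested pericyte and smooth muscle genes, 4 were called lower (28.6%, against 5.24% of all genes) and none higher (median -0.54). Cspg4, the NG2 proteoglycan of pericytes and some glia, was read at 116, 122 and 109 CPM in WT and 75.3, 71.3 and 83.6 CPM in KO (-0.60 ± 0.07, adjusted p = 7.1e-04), and stayed called without any 1 sample. Des, a muscle intermediate filament, had 12.5, 13 and 11 CPM in WT and 5.27, 5.52 and 8 CPM in KO (-0.96 ± 0.17, adjusted p = 0.0060, and 0.051 without WT 2). Myh11 fell by 1.20 ± 0.33 and Notch3 by 0.59 ± 0.14. Myh11 lost its call without WT 1, WT 2, WT 3 or KO 1 (adjusted p 0.122 to 0.156) and Notch3 without WT 1, WT 2 or KO 1 (0.092 to 0.148).

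Macrophage transcripts were scarce in these cultures. Of 23 tested genes, 3 were called lower (13.0%, against 5.24% of all genes) and none higher (median -0.53), and the summed CPM of the list was 251 to 286 in WT and 176 to 236 in KO. Mpeg1, a pore-forming protein of macrophages, had 20.2, 18.4 and 15.6 CPM in WT and 9.93, 6.63 and 11.2 CPM in KO (-0.96 ± 0.18, adjusted p = 0.0070, and 0.057 without WT 1). Adgre1 and Ms4a7 fell by 0.95 ± 0.23 and 0.88 ± 0.25. Adgre1 lost its call without WT 1, WT 2 or KO 1 (adjusted p up to 0.153) and Ms4a7 without any of the 6. For Csf1r, the growth factor receptor of macrophages, the difference was -0.61 (adjusted p = 0.199), and for Cd68, a lysosomal protein, 0.27 (adjusted p = 0.102). Without KO 3, 10 genes of the list were called lower, and without WT 1 none. Over all genes, 1292 were called lower without KO 3 and 192 without WT 1.

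**Figure D3:**
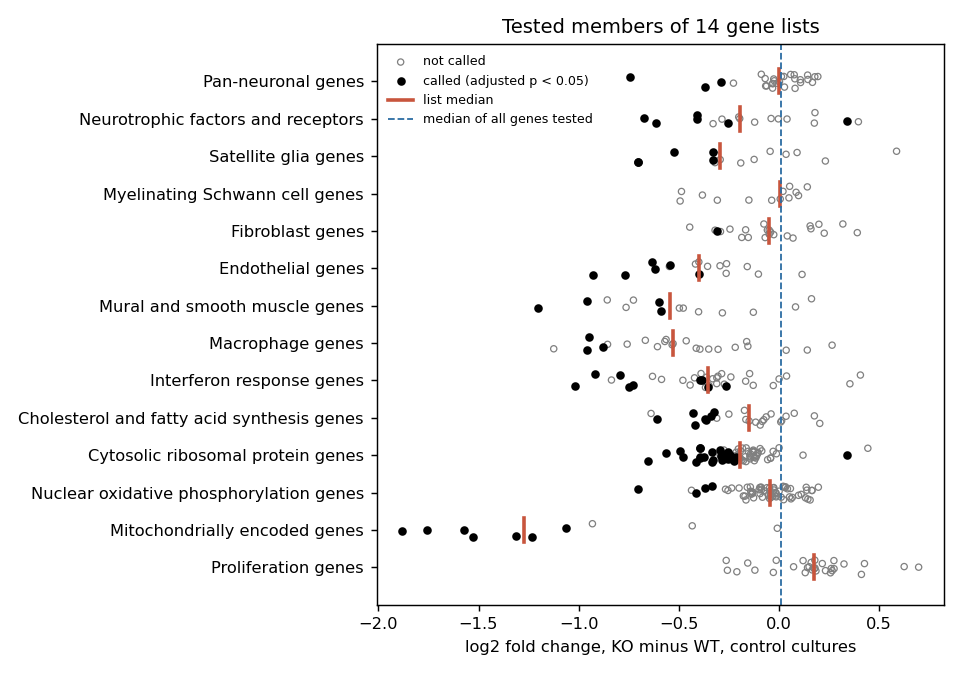
Log2 fold change, KO minus WT in control cultures, of the tested members of 14 gene lists; filled points were called at an adjusted p below 0.05, open points were not, red bars are list medians and the dashed line is the median of all genes tested (0.01). Mitochondrially encoded genes lie furthest to the left, and the endothelial, mural, macrophage and interferon lists have medians from -0.54 to -0.35.

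Interferon-stimulated genes encode antiviral proteins and are switched on together through a shared promoter element. Of 34 tested genes of this response, 9 were called lower in KO (26.5%, against 5.24% of all genes) and none higher (median -0.35). Ifit1, an RNA-binding inhibitor of translation, was read at 26.3, 25.5 and 20.7 CPM in WT and 12.6, 9.86 and 13.2 CPM in KO (-1.02 ± 0.14, adjusted p = 9.7e-04). Oasl2, an oligoadenylate synthetase-like protein, was read at 69, 67.2 and 55.8 CPM in WT and 39, 37 and 39.7 CPM in KO (-0.73 ± 0.09, adjusted p = 5.7e-04). Ifit3 was read at 68.5, 69 and 52.8 CPM in WT and 41, 30.8 and 37.7 CPM in KO (-0.79 ± 0.13, adjusted p = 0.0056), and its near-identical neighbour Ifit3b fell by 0.92 ± 0.15, with reads that can be split between the pair. These 4 stayed called without any 1 sample.

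The other calls were weaker and met members of the sensing and signalling steps. They were Ifit2, the transcription factors Irf7 and Stat2, and the RNA sensors Ddx58 and Ifih1, with log2 fold changes of -0.39, -0.75, -0.26, -0.36 and -0.38. Each lost its call without WT 1 and without WT 2. With WT 1, WT 2, WT 3, KO 1, KO 2 or KO 3 left out, 4, 4, 11, 7, 8 and 21 genes of the list were called lower. Over all genes these fits called 192, 210, 504, 495, 883 and 1292 lower, against 845 with all samples. Macrophage genes, whose cells are one source of such transcripts, were lower in the same samples (summed CPM above), and their part in the result was not tested.

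The stretches below show the interferon-stimulated response element in the promoters of the Ifit genes that fell most, since these genes share it and moved together. They come from RefSeq promoter windows of the build GRCm38.p6, another build than that of the counts, and are on the plus strand of chromosome 19. Capitals mark matches to GAAANNGAAA on either strand, which on the printed strand read TTTCNNTTTC.
Ifit1, chr19:34640765-34640833: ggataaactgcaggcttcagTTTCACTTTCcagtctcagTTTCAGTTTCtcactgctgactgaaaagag
Ifit3, chr19:34583353-34583436: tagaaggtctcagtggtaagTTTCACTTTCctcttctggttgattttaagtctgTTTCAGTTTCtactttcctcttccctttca
Ifit3b, chr19:34607749-34607832: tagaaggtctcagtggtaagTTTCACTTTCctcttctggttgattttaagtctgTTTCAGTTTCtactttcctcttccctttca
Each stretch holds 2 matches, and the printed stretches of Ifit3 and Ifit3b are the same letters. In Ifit1 the matches lie 104 to 76 bases before the start of the gene. In the 250 bases before the start, the motif was found in 2.98% of 32851 promoter windows, in 3.46% of the 27025 genes with a window and in 12 of the 23 interferon genes with a window in the table. It was present in 4 of 9 such genes called lower (Stat2 beside the 3 shown) and in 8 of 14 not called.

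Genes of fatty acid and cholesterol synthesis, which supply membranes of neurites and glia, were also among the lower genes. Of 25 tested, 7 were called lower (28%, against 5.24% of all genes) and none higher (median -0.15). In 13 every KO sample lay below every WT sample, which held for 15.5% of all genes. Acaca, the acetyl-CoA carboxylase that commits carbon to fatty acids, was read at 84.8, 85 and 80.9 CPM in WT and 55.5, 53.7 and 55.2 CPM in KO (-0.61 ± 0.06, adjusted p = 2.0e-04). Fasn, the fatty acid synthase that follows it, was read at 263, 263 and 268 CPM in WT and 204, 184 and 202 CPM in KO (-0.43 ± 0.06, adjusted p = 0.0010). The desaturases Scd1 and Scd2 and the squalene synthase Fdft1 fell by 0.37, 0.34 and 0.32 on the log2 scale. Acaca and Fasn stayed called without any 1 sample. Without WT 1, 3 genes of the list and 192 of all genes were called lower. The adjusted p of Scd1, Scd2 and Fdft1 was then 0.0673, 0.132 and 0.0709.

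For matrix genes the result turned on KO 3, the sample with the high Postn level. Of 20 other matricellular genes tested, Ccn1 was called higher (5%, against 2.93% of all genes) and none lower. Ccn1 had 180, 176 and 190 CPM in WT and 237, 194 and 260 CPM in KO (0.34 ± 0.09, adjusted p = 0.047), and kept its call only when KO 2 was left out. Of 26 tested collagen chains, Col20a1 was called higher (3.85%, against 2.93% of all genes). Col12a1 and Col18a1 were called lower (7.69%, against 5.24% of all genes). Each of the collagen calls had an adjusted p above 0.05 without WT 1 or WT 2. Of 20 tested integrin subunits, 1 was called lower (5%, against 5.24% of all genes) and none higher. It was Itgb5, a partner of the αv chain and thereby of a periostin receptor. Itgb5 had 102, 104 and 93 CPM in WT and 82.6, 77.4 and 87.3 CPM in KO (-0.27 ± 0.07, adjusted p = 0.029, and 0.167 without WT 1). Collagen transcripts summed to 6758, 6618 and 5825 CPM in WT 1, 2 and 3 and 5432, 5068 and 7184 in KO 1, 2 and 3, and matricellular ones to 5143 to 5812 CPM in WT and 5251, 4538 and 6629 in KO. In both lists KO 3 lay above every WT sample and KO 2 below. The medians of the matricellular, collagen and integrin lists were -0.007, -0.045 and -0.155 with all samples and -0.31, -0.33 and -0.24 without KO 3. Without KO 3, 5 of 20, 10 of 26 and 6 of 20 of these genes were called lower, against 7.82% of all genes in that fit. The fibroblast list moved in the same way, with 3410, 2915 and 4234 summed CPM in KO 1, 2 and 3 and with 1 of 23 genes called lower with all samples and 6 without KO 3. The part of fibroblast content in the matrix results was not tested.

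TGF-β signalling is a known inducer of Postn. Tgfb1, a main ligand, was read at 49.2, 52.9 and 43.5 CPM in WT and 27.2, 25.5 and 33.9 CPM in KO (-0.75 ± 0.11, adjusted p = 0.0021), and stayed called without any 1 sample. Of 19 tested ligands, receptors and targets, Tgfb1, Tgfbr2 and Smad3 were called lower (15.8%, against 5.24% of all genes) and none higher (median -0.12). The receptor Tgfbr2 fell by 0.25 and the signal carrier Smad3 by 0.43 on the log2 scale, and without WT 1 their adjusted p was 0.162 and 0.122. Among 19 tested matrix proteases and inhibitors, 3 were called lower (15.8%, against 5.24% of all genes) and none higher. Adamts4, which cuts proteoglycans, had 10.9, 9.91 and 10.9 CPM in WT and 4.76, 5.67 and 6.41 CPM in KO (-0.91 ± 0.16, adjusted p = 0.0045). Plau and Mmp15 fell by 0.59 and 0.45 and lost their calls without WT 1 (adjusted p = 0.068 and 0.062).

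Other pathways gave few calls. Of 20 tested heat shock and unfolded protein genes, Pdia4, a chaperone of the endoplasmic reticulum, was lower, at 135, 127 and 120 CPM in WT and 77.8, 66.6 and 84.8 CPM in KO (-0.74 ± 0.08, adjusted p = 5.2e-04). Atf4, the transcription factor of the amino acid response, and its target Trib3 rose by 0.21 and 0.50 on the log2 scale, and both lost their calls without WT 1, WT 2 or WT 3 (adjusted p 0.0572 to 0.180). None of 28 tested Hox genes was called (median 0.14). None of 30 tested proliferation genes was called either (median 0.18), but their summed CPM was 655, 631 and 925 in KO 1, 2 and 3 against 641 to 714 in WT. Without KO 3 their median was -0.10 and 3 were called lower, as were 1292 of all genes. For 26 cytokine, chemokine and NF-kB genes, of which 19 were tested, Cxcl12 and Cx3cl1 were called lower and none higher, and without WT 1 their adjusted p was 0.146 and 0.233.

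The lists held few of the genes higher in KO. Among the 15 such genes with the largest fold change by the naming rule, Sh2d6, an SH2 domain adaptor, had 8.83, 11.3 and 10.5 CPM in WT and 17.5, 21.6 and 20.5 CPM in KO (0.96 ± 0.13, adjusted p = 0.0012). Amy1, an amylase with near-identical copies, was read at 25.2, 26.5 and 31.9 CPM in WT and 50.6, 52.5 and 47.4 CPM in KO (0.84 ± 0.09, adjusted p = 4.1e-04). Dsc2, a desmosomal cadherin, rose by 0.87 ± 0.15 and Sclt1, a centriole protein, by 0.81 ± 0.12. These 4 stayed called without any 1 sample. Sclt1 lies within 20 Mb of Postn on chromosome 3. Its log2 fold change was 0.69 in rPOSTN cultures and 0.77 in ganglia, called in neither (adjusted p = 0.205 and 0.707). In both, every KO sample lay above every WT sample, which held for 9.91 and 3.01% of all genes. The part of its location was not tested. Tmem267 had the largest fold change of the 15, at 4.64, 3.81 and 4.60 CPM in WT and 8.24, 6.47 and 11.2 CPM in KO (0.99 ± 0.21, adjusted p = 0.012), with an adjusted p of 0.0625 without WT 1 and 0.0782 without WT 2.

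Other genes higher in KO, chosen after their values were seen, were more abundant. Rsrp1, an arginine- and serine-rich nuclear protein, was read at 390, 409 and 400 CPM in WT and 595, 606 and 630 CPM in KO (0.61 ± 0.06, adjusted p = 1.2e-04). Clk1, a kinase of splicing factors, and Srsf5, a splicing factor of that class, rose by 0.54 ± 0.07 and 0.39 ± 0.07. Mat2a, which makes S-adenosylmethionine, was read at 332, 342 and 351 CPM in WT and 470, 496 and 458 CPM in KO (0.47 ± 0.06, adjusted p = 7.8e-04). Metap1d, a mitochondrial methionine aminopeptidase, rose by 0.60 ± 0.07. Each of these 5 stayed called without any 1 sample. The nuclear long non-coding RNA Malat1 went the other way, with 1154, 1584 and 1160 CPM in WT and 680, 544 and 687 CPM in KO (-1.03 ± 0.15, adjusted p = 0.011).

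The same genotypes were next compared in cultures given rPOSTN. Fewer genes were called there: 13 of 16098 (0.0808%), all lower in KO and all among the 845 lower genes of the control cultures. An unadjusted p below 0.05 was found for 12.1% of genes. Of the 13, 7 were mitochondrial: mt-Nd2, mt-Nd4, mt-Nd5, mt-Nd6, mt-Cytb, mt-Rnr1 and mt-Rnr2, with log2 fold changes of -1.20, -1.42, -1.67, -1.90, -1.08, -1.24 and -1.76. Kcnj10, Acaca and Nes were called with -0.75, -0.74 and -0.74. The remaining 3 were Gm2000, the long non-coding RNA AC102496.1 and Rps6-ps4, a processed pseudogene. Of the 472 genes higher in control cultures, 461 of the 469 tested had the same sign with rPOSTN, with a median of 0.30 against 0.36. For the lower genes it was 834 of 844, with a median of -0.31 against -0.34. This is not independent support, since genotype and table coincide here too and samples of the same number deviated together across the 2 media (correlations across genes of 0.124 to 0.393 in WT and 0.388 to 0.715 in KO). In KO each sample correlated best with that of its own number, which did not hold for all WT samples.

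In vehicle ganglia, whose 2 genotypes lie in 1 table, few differences were called. Only Postn and Pdk4, a kinase that shuts down pyruvate oxidation, were called, 2 of 16619 genes (0.012%), and 3.08% of genes had an unadjusted p below 0.05. The log2 fold changes of the 10 mitochondrial genes called in cultures lay between -0.15 and 0.15: mt-Nd5 averaged 3186 ± 116.7 CPM in WT and 2864 ± 274.9 CPM in KO. Of the 238 genes called in cultures without any 1 sample, the higher ones had a median of 0.01 in ganglia, with 36 of 67 above 0, and the lower ones a median of -0.02, with 95 of 169 below 0. Ganglia hold all cells in place and were not cultured, so tissue and culture differ between the 2 comparisons as well as table layout.

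**Figure D4:**
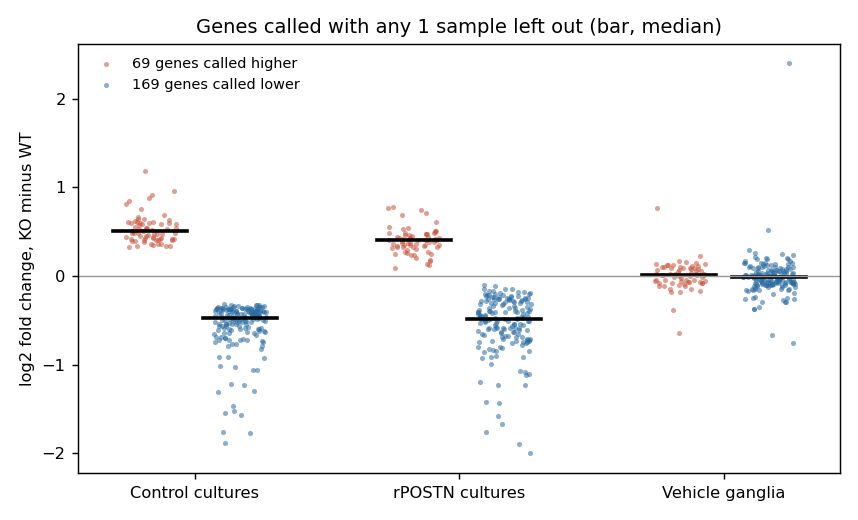
Log2 fold change, KO minus WT, in control cultures, rPOSTN cultures and vehicle ganglia, of the 69 genes higher (red) and 169 lower (blue) that were called in control cultures with any 1 sample left out; points are genes and bars are medians. The control cultures chose the genes, the rPOSTN cultures have medians of 0.40 and -0.48, and the ganglia have medians of 0.01 and -0.02.

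A test of the difference itself, control cultures minus vehicle ganglia, called 18 of 17560 genes (0.103%), 5 higher and 13 lower. Of these, 7 were mitochondrial genes: mt-Nd5 (-1.60 ± 0.15, adjusted p = 0.0014), mt-Rnr2 (-1.72 ± 0.18), mt-Nd1 (-1.48 ± 0.19), mt-Nd4, mt-Nd2, mt-Cytb and mt-Co1. The neuronal genes Nefh (-0.85 ± 0.13, adjusted p = 0.031) and Calb1 (-0.93 ± 0.14, adjusted p = 0.031) and the splicing-related Rsrp1 (0.70 ± 0.11, adjusted p = 0.032) were called too. Of these 10, mt-Nd5, mt-Rnr2 and mt-Nd1 stayed called without any 1 of the 12 samples. The other 7 lost the call in 8 or 9 of the 12 cases. With the replicate number as a block shared by ganglia and cultures, mt-Co1 and Rsrp1 were no longer called (adjusted p = 0.0571 for both) and the other 8 were. The block thus also covered the cultures, whose numbers did not pair, so these changes are not those of pairing the ganglia alone. Postn in ganglia stayed called with the block (adjusted p = 0.0094). None of the endothelial or ribosomal genes named above passed this test.

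The calls also moved with the base composition of the transcripts. The median GC content was 49.6% over all genes tested, 45.5% for genes called higher and 52% for genes called lower. Over 5 equal groups of genes, from the lowest GC content to the highest, the share called lower went from 2.54 to 7.02% and the share called higher from 5.77 to 1.89%. The level of a gene relative to the mean of the 6 samples rose by 0.02 to 0.03 log2 units per 10 points of GC in the WT samples and fell by 0.02 to 0.05 in the KO samples. Lower genes also had longer exonic sequence, with a median of 5834 bases against 4126 for all tested. With offsets for GC content or for length, 1208 and 1218 genes were called, and 903 of the 1317 were called under both.

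**Figure D5:**
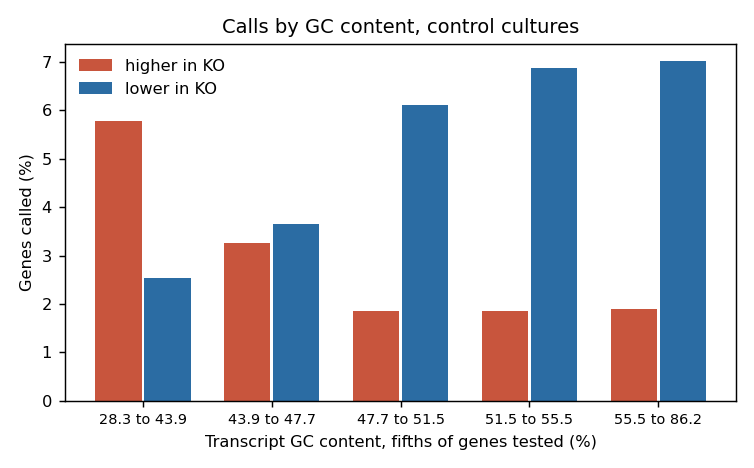
Percent of tested genes called higher (red) or lower (blue) in KO control cultures, in 5 equal groups by transcript GC content (%). Calls of lower genes go from 2.54% in the lowest group to 7.02% in the highest, and calls of higher genes from 5.77% to 1.89%.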

How the data were processed

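Poly-A selected RNA was sequenced from DRG cultures and whole ganglia with a strand-marking kit and paired 150-base reads on DNBSEQ-T7, per the labels' protocols. The deposited values are raw counts per Ensembl gene in 3 tables of 55487 genes. HISAT2 2.1.0, Bowtie2 2.2.3 and TopHat2 and the build GRCm39 are named, per the submitters' processing notes. For the counting tool and its strand setting, the sources used here give nothing. Every per-sample column was matched to a sample.

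Chromosomes, GC content and lengths came from GENCODE M21 (GRCm38), so no coordinates of genes are printed from it. Counts were filtered with filterByExpr, scaled by TMM and tested with edgeR 4.0.16 (robust quasi-likelihood test, R 4.3.3, limma 3.58.1), and p was adjusted by Benjamini-Hochberg over every gene in the fit. Autosomal and mitochondrial genes below 0.05 count as called. CPM use TMM-scaled library sizes. Alternatives included DESeq2 1.42.0, other scalings and filters, offsets, a replicate block and each sample left out. The steps were tested on simulated data. Ganglion samples of the same number deviated together (correlations 0.868, 0.828 and 0.163), which pairs them by the rule used. Not every ganglion sample correlated best with that of its own number. The fits are without the block, and blocked values are given where a named call changes.

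Named genes were Postn, called genes within 5 Mb of it, up to 4 called genes per direction of each list (2 where none was called), and the 15 highest and 15 lowest fold changes among called genes of at least 5 CPM whose groups did not overlap. Picked outside it, with their values already seen, were: mt-Tp, Calb1, Cdh19, Nes, Pecam1, Cldn5, Ifit2, Irf7, Stat2, Ddx58, Ifih1, Scd2, Fdft1, Rsrp1, Clk1, Srsf5, Mat2a, Metap1d, Mterf3, Pdk4, F3, Lox, Lgi3, Eef2, Eef1a1, Stmn2, Prph, Tubb3, Cd68, Csf1r, Cd3e and Cd3g. The members and lists were chosen with earlier results of these data known. Some list members are counted but not reported here by name.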

Additional observations from a re-analysis of the deposited data

Results flagged for a closer look

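The KO minus WT difference in control cultures itself differed from that in vehicle ganglia for 18 genes (edgeR's quasi-likelihood test, adjusted p 0.0014 to 0.035). Values are the log2 difference, cultures minus ganglia.

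Mitochondrial genes were more negative in cultures: mt-Rnr2 by -1.72, mt-Nd5 by -1.60, mt-Nd4 by -1.49, mt-Nd1 by -1.48, mt-Nd2 by -1.23, mt-Cytb by -1.12 and mt-Co1 by -0.97. Of neuronal genes, Calb1 differed by -0.93, Nefh by -0.85 (unrounded -0.845) and Lgi3, a secreted synaptic and axonal protein, by -0.72. Ifit3b differed by -1.43 and Rsrp1 by 0.70.

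For other genes the ganglia carried much of the difference. Among those below, only Pdk4 was called in ganglia on their own (adjusted p = 0.015, the others above 0.14). Lox, F3 and Pdk4 were not called in control cultures (adjusted p = 0.146, 0.0705 and 0.577). Slc15a2, a peptide transporter, averaged 10.2 CPM in WT and 4.89 CPM in KO cultures but 3.42 and 17.9 CPM in ganglia, a difference of -3.46. Tmem267 averaged 4.35 and 8.65 CPM in cultures and 25.9 and 10.7 CPM in ganglia, a difference of 2.27. Lox, a collagen crosslinking enzyme, averaged 82.1 and 96.2 CPM in cultures and 111.7 and 44.5 CPM in ganglia, a difference of 1.56. Pdk4 differed by 1.36 and F3, tissue factor, by 0.89. The pseudogene Gm8210 differed by -5.75, against WT ganglia that averaged 0.0903 CPM, so that its fitted value depends on the prior count.

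The calls of mt-Nd1, mt-Nd5, mt-Rnr2, Slc15a2 and Gm8210 held without any 1 of the 12 samples. Tmem267 lost its call in 3 of the 12 cases and the other 12 genes in 8 to 11. With the replicate block Lgi3, Lox, mt-Co1 and Rsrp1 were no longer called (adjusted p 0.0571, 0.0530, 0.0571 and 0.0571).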

How the results depend on the processing

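The count of 1317 calls in control cultures was within 1.5 times under DESeq2 (1477), RLE size factors (1313), upper-quartile scaling (1284), a filter of 1 CPM (1343), adjustment over autosomal and mitochondrial genes only (1323), length offsets (1218) and, added after seeing the data, GC offsets (1208) and library sizes without mitochondrial genes (1299). With no filter 1936 genes were called, 1282 of them lower. With all 4 culture groups in 1 fit it was 273 (95 higher, 178 lower). With the replicate block it was 476 (154 higher, 322 lower), with length offsets and the block 524 (179 and 345), and with GC offsets and the block, added after seeing the data, 398 (105 and 293). Replicate numbers did not pair the control cultures (correlations -0.0095, -0.155 and -0.368). The block gave 12 calls in rPOSTN cultures, 3 in ganglia, with both calls kept, and 15 for the difference between cultures and ganglia, 14 of them shared. Leaving out 1 sample gave 271 to 2111 calls, 79 to 819 higher and 192 to 1292 lower. The causes of these changes were not tested.

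In rPOSTN cultures, DESeq2 called 198 genes, no filter 473 and leaving out 1 sample 3 to 49. In ganglia these were 26, 20 and 0 to 2. For the difference they were 112, 138 and 5 to 25. Postn in control cultures had an adjusted p of 0.0332 in DESeq2. Over single genes and alternatives, 1798 values kept their direction and call, 412 kept their direction but not the call, and 5 gained a call. No direction reversed among them. Of the mitochondrial genes, 6 had only 0 to 41 counts per sample, so their values have wide counting error. Table and genotype cannot be told apart.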
